A study of Homo sapiens with 6 samples.

Results

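The proteasome is the chamber in which cells degrade ubiquitin-tagged proteins, and its subunits were taken here as the protein-coding genes of the deposited read table whose symbol begins with PSM, a letter from A to G and a number. The rule found 49 of 29845 gene rows, which carried 47 distinct symbols because PSMA1 and PSMA2 each labelled a further row for a readthrough gene. Of the 49, 48 had enough reads to be tested and PSMB11 did not. The libraries came from A549, a long-cultured line of epithelial cells from a human lung cancer. Control cells were transfected with the empty pIRES-hrGFP-1a plasmid and the other cells with the same plasmid carrying TFAM with a FLAG tag, both with a lipid reagent (Lipofectamine), and each group had 3 biological replicates. The study used them to ask which transcripts respond to TFAM, a protein that packs and transcribes mitochondrial DNA. Poly(A) RNA was sequenced. Per library, the depth over all genes was 32430766 (replicate 1), 26650854 (replicate 2) and 37321956 reads (replicate 3) for the control. For TFAM-OE it was 33579510 (replicate 1), 36958682 (replicate 2) and 28735164 reads (replicate 3).

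TFAM mRNA had 76.1, 70.2 and 72.7 CPM (reads relative to library size, scaled by the TMM method) in the control libraries and 71.9, 77.3 and 83.0 in the TFAM-OE libraries. The groups overlapped, and the log2 fold change of TFAM was 0.08 ± 0.10 (SE, n = 3 per group, adjusted p = 0.623, edgeR quasi-likelihood test with Benjamini-Hochberg adjustment). Whether reads of the plasmid were counted on the TFAM row was not tested, and the study also probed the tagged protein by western blot, which the deposited tables do not hold. The group given the TFAM plasmid is therefore called labelled TFAM-OE, and every direction below is that of the labels. The keratins KRT8 and KRT18, which mark epithelial cells, stood at 1625 to 1969 and 1082 to 1422 CPM over the 6 libraries, and the aldo-keto reductase AKR1B10, abundant in A549, at 1763 to 2277 CPM. EPCAM, another epithelial marker, had few reads, 19, 9 and 17 in the control against 23, 26 and 32 in the labelled TFAM-OE group, without overlap in CPM (log2 fold change 0.84 ± 0.32, adjusted p = 0.131). KRT19 stood below KRT8 and KRT18, at 125.1 to 160.9 CPM, and its groups overlapped (adjusted p = 0.711). ALDH3A1, also abundant in A549, was higher in the libraries labelled TFAM-OE (log2 fold change 0.59 ± 0.11, adjusted p = 0.0128), a call lost without control replicate 1 or 2 or TFAM-OE replicate 2 (adjusted p from 0.0595 to 0.0804). The alveolar markers SFTPB, SFTPC and NKX2-1 had at most 6 reads in any library.

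The core of the proteasome is a barrel of stacked rings, with alpha subunits that gate the entrance and beta subunits that include the proteases, and a regulatory cap recognises, unfolds and feeds in the substrate. Interferons induce a variant, the immunoproteasome, in which PSMB8, PSMB9 and PSMB10 take the places of the constitutive proteases PSMB5, PSMB6 and PSMB7, while PSME1 and PSME2 form an activator ring that also opens the chamber. The immunoproteasome is known for cutting peptides that suit presentation on class I histocompatibility molecules, and epithelial cells raise it on contact with interferon.

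The 3 inducible proteases fell in the TFAM-OE group, with log2 fold changes of -1.003 for PSMB8, -1.14 for PSMB9 and -0.64 for PSMB10, although the value of PSMB10 came to -0.03 once the reads of an overlapping gene were added. The activator genes PSME1 and PSME2 had smaller negative differences that missed the threshold. Of the 43 constitutive subunits, 0 passed edgeR's quasi-likelihood test, 1 (PSMB7) had an unadjusted p below 0.05, and 0 passed under DESeq2 or limma-voom. PSMB8, PSMB9 and PSMB10 passed under TMM, RLE, upper-quartile and library-size scaling, PSME1 and PSME2 only under the last of these, and no constitutive subunit under any. The median log2 fold change was -0.64 over the 5 inducible members, 0.03 over the 43 constitutive members tested and -0.01 over all 16555 genes tested. The value over the inducible members is that of PSMB10, and with the readthrough reads summed, an alternative chosen after seeing the data, it was -0.39, that of PSME2. In all, 3 of 48 members, 6.25%, were lower at an adjusted p below 0.05, against 4.81% of all genes tested. With all 6 libraries the family as a whole was thus called about as often as other genes. In either direction, 1372 genes passed in that fit. Without control replicate 1, control replicate 2 or TFAM-OE replicate 2, 342, 306 and 351 genes passed, with 2 members each time. Without TFAM-OE replicate 3, 3214 genes and 4 members passed. With all 6 libraries and a fold change of at most 0.5 required as well, 2 of 48 members (PSMB8 and PSMB9), 4.17%, were called, against 2.07% of all genes. PSMB8 missed that line under DESeq2, RLE and upper-quartile scaling, with no filter and without control replicate 2 (-0.92) or 3 (-0.997) or TFAM-OE replicate 3 (-0.85), and PSMB9 missed it without TFAM-OE replicate 3 (-0.99). In the other direction 0 members passed edgeR's test, against 3.48% of all genes tested, with 0 at an unadjusted p below 0.05 and 0 under DESeq2 or limma-voom. In bulk RNA, fewer cells with a transcript and less of it per cell cannot be told apart.

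All 5 inducible members (PSMB10 only before the readthrough reads were added) were lower in every labelled TFAM-OE library than in any control library. Of all genes tested, 15.8% were lower in this way. Motifs for interferon-activated factors are a known feature of the promoters of inducible members, so windows of 300 bases around their gene starts are shown. The windows come from RefSeq (GRCh38.p14), run from 250 bases before to 50 bases after the start, and are written 5′ to 3′ on the strand of the gene. Of the 47 member symbols, 41 had a window, with 50 windows in all, and those without one were PSMA7, PSMB1, PSMB6, PSMB7, PSMD4 and PSMG3. Capitals mark every match on either strand to the core of the interferon-stimulated response element (GAAANNGAAA, or TTTCNNTTTC on the other strand), the core of the gamma-activated site (TTCNNNGAA), the core of the antioxidant element read by NFE2L1 and NFE2L2 (TGACNNNGC), the NF-Y box (CCAAT) and the SP1 box (GGGCGG). PSMB8 had a further window at chr6:32844630-32844929 (minus strand), which held only an SP1 box and is not shown. The windows are PSMB8 at chr6:32843998-32844297 (minus strand), PSMB9 at chr6:32853942-32854241 (plus strand), PSMB10 at chr16:67936801-67937100 (minus strand), PSME1 at chr14:24135944-24136243 (plus strand) and PSME2 at chr14:24146561-24146860 (minus strand).
PSMB8: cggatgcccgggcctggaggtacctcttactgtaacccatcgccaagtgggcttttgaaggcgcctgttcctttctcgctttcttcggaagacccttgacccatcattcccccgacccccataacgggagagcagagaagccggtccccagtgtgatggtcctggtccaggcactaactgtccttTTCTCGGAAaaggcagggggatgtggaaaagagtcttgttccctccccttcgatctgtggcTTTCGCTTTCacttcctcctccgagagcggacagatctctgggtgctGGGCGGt
PSMB9: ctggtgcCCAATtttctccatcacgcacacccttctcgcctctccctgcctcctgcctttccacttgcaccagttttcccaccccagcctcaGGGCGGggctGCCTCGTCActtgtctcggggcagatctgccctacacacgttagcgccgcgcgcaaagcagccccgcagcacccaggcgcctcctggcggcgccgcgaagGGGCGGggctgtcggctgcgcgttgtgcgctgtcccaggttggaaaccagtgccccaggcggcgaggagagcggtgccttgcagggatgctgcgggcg
PSMB10: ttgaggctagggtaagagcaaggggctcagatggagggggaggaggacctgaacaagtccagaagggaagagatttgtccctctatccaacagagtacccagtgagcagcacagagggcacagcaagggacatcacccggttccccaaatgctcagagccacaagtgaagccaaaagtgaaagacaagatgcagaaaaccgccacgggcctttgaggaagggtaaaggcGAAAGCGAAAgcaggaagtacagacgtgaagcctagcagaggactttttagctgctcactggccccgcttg
PSME1: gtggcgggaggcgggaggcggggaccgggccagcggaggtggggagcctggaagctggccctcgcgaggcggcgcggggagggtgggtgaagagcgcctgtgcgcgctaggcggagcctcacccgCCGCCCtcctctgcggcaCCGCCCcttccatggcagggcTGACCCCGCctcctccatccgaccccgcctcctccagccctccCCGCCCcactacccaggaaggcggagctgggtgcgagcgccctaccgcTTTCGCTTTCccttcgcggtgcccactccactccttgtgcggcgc
PSME2: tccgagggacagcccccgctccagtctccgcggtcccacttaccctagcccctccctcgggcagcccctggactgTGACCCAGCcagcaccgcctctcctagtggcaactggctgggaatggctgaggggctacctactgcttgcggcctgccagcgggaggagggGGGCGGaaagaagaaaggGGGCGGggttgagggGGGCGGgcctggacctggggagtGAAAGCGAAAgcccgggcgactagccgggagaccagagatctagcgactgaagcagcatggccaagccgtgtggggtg

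The interferon-stimulated core was present in the windows of PSMB8, PSMB10, PSME1 and PSME2, at position -4, -21, 6 and -28 from the gene start. Among the 36 constitutive and tissue-specific symbols with a window it was found in 3, PSMA4, PSMB4 and PSMG4. Over all 35116 windows of the table, 3.57% held it. The gamma-activated core stood in the PSMB8 window beside it, at position -65, in 6 of the 44 constitutive windows (13.6%) and in 7.66% of all windows. The PSMB9 window held neither. PSMB9 is transcribed away from TAP1, a gene of the peptide transporter, and the window of TAP1 held a pair of overlapping interferon-stimulated cores that end 354 and 360 bases before the PSMB9 start, outside the PSMB9 window. The antioxidant core was in 15 of the 50 member windows, 30%, against 13.3% of all windows, and the SP1 box in 34, 68%, against 45%. The NF-Y box was in 20, 40%, against 34.6%. A match says only that these letters are present.

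PSMB8 supplies the chymotrypsin-like protease of the immunoproteasome and lies at chr6:32840717-32844679 on the minus strand (GRCh38, GENCODE), within the class II histocompatibility region. It had 102.0, 127.7 and 115.8 CPM in control replicates 1, 2 and 3 and 67.5, 59.9 and 44.9 CPM in TFAM-OE replicates 1, 2 and 3. The lowest control library lay above the highest labelled TFAM-OE library. The means were 115.2 ± 12.9 and 57.4 ± 11.5 CPM (SD, n = 3 each), and the log2 fold change was -1.003 ± 0.15 (SE, 95% interval -1.34 to -0.67, adjusted p = 0.00485, edgeR quasi-likelihood test with Benjamini-Hochberg adjustment). Its fold of 0.499 lay at the edge of the 0.5-fold line, and under DESeq2 the log2 fold change was -0.997.

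PSMB9, which takes the place of the caspase-like protease PSMB6, lies next to PSMB8 on the plus strand, at chr6:32844136-32859851. Its levels were 50.5, 77.1 and 71.3 CPM in the control libraries and 35.0, 31.4 and 23.8 CPM in those labelled TFAM-OE. Control replicate 1 was the lowest of its group, yet it stood above all 3 labelled TFAM-OE libraries. The log2 fold change was -1.14 ± 0.18 (SE, 95% interval -1.55 to -0.74, adjusted p = 0.00619, edgeR quasi-likelihood test with Benjamini-Hochberg adjustment), the most negative of all members. Both PSMB8 and PSMB9 passed the test when any 1 of the 6 libraries was left out, with log2 fold changes of -1.13 to -0.85 and -1.30 to -0.99.

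Several genes share this locus. TAP1, between PSMB8 and the RefSeq start of PSMB9, had a log2 fold change of -0.99 ± 0.16 (adjusted p = 0.00555). The antisense transcript PSMB8-AS1, which shares 602 exon bases with PSMB8 on the opposite strand, had -0.997 ± 0.18 (adjusted p = 0.0118) from 98 to 307 reads a library. PSMB8 and PSMB9 also share 139 exon bases on opposite strands. The library kit was stranded, but the sources used here do not give whether strand entered the counting. Reads of PSMB8 could therefore be mixed with those of PSMB9 and PSMB8-AS1. PSMB9 and PSMB8-AS1 share 174 exon bases on the same strand, so their reads could be mixed with either setting. PSMB8 itself had 1347 to 4243 reads.

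PSMB10, the inducible counterpart of the trypsin-like protease PSMB7, lies apart from the others at chr16:67934506-67936864 on the minus strand. It had 12.6, 15.95 and 13.4 CPM in the control libraries and 10.6, 8.67 and 7.70 CPM in those labelled TFAM-OE. The groups did not overlap, but the gap between them was only that from 12.6 to 10.6 CPM. The log2 fold change was -0.64 ± 0.16 (SE, 95% interval -0.99 to -0.28, adjusted p = 0.0380, edgeR quasi-likelihood test with Benjamini-Hochberg adjustment). This call was lost when control replicate 1, 2 or 3 or TFAM-OE replicate 2 was left out, with adjusted p = 0.0996, 0.175, 0.0675 and 0.164 and log2 fold changes of -0.70, -0.53, -0.66 and -0.61. The genes passing in all also fell in these fits, to 342, 306, 1230 and 351, against 1372 with every library.

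The level of PSMB10 is uncertain for a further reason. A readthrough gene listed as CTC-479C5.12 shares 640 of the 1626 exon bases of PSMB10 on the same strand and continues into CTRL. That row held 630, 678 and 960 reads in the control and 996, 1054 and 677 in the labelled TFAM-OE group. PSMB10 itself held fewer in each library, 424, 427 and 491 against 338, 315 and 231 reads. The log2 fold change of CTC-479C5.12 was 0.24 ± 0.16 (adjusted p = 0.395). With the reads of both rows summed, an alternative chosen after seeing the data, the libraries stood at 31.4, 41.3 and 39.6 CPM in the control and 41.9, 37.7 and 30.3 CPM in the labelled TFAM-OE group. The groups then overlapped, and the log2 fold change was -0.03 (adjusted p = 0.919). The readthrough gene has 5685 exon bases in all, so an unknown part of its reads lies outside PSMB10.

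**Figure D1:**
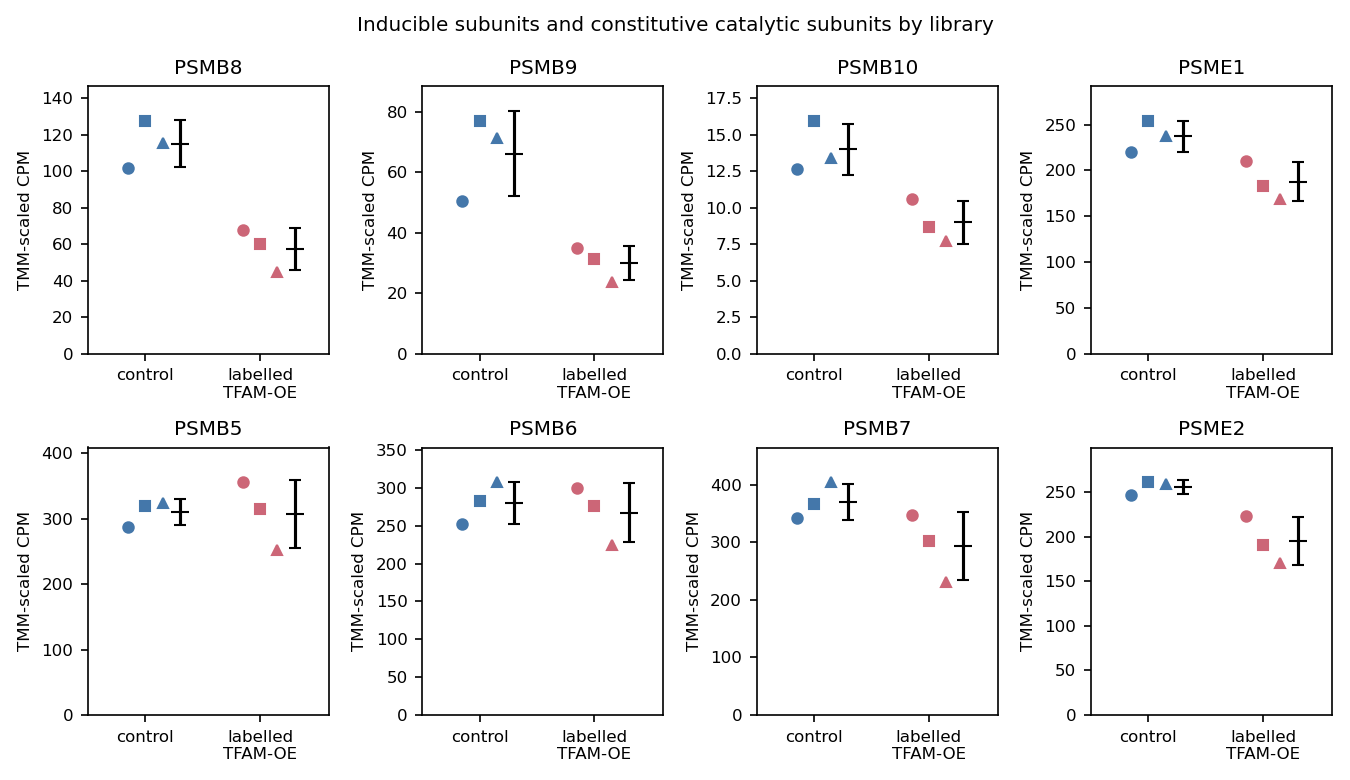
TMM-scaled CPM of the inducible members PSMB8, PSMB9, PSMB10, PSME1 and PSME2 and of the constitutive proteases PSMB5, PSMB6 and PSMB7 in each library (circle, square and triangle: replicates 1, 2 and 3), with the mean and SD of the 3 libraries beside them. The 5 inducible members show no overlap between the groups (PSMB10 drawn without the readthrough reads), while the points of PSMB5, PSMB6 and PSMB7 overlap. Of all genes tested, 15.8% were lower without overlap.

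PSME1 and PSME2 are neighbours on chromosome 14, PSME1 at chr14:24136163-24138967 and PSME2 at chr14:24143362-24147570, and their products alternate in one activator ring. PSME1 had 220.1, 254.0 and 237.6 CPM in the control libraries and 210.5, 183.2 and 168.9 CPM in those labelled TFAM-OE. PSME2 had 247.2, 260.8 and 259.1 CPM against 223.6, 190.9 and 170.9 CPM. In both genes every labelled TFAM-OE library was below every control library. TFAM-OE replicate 1 came nearest to the lowest control library, at 210.5 against 220.1 CPM in PSME1 and 223.6 against 247.2 CPM in PSME2. The log2 fold changes were -0.34 ± 0.11 for PSME1 (95% interval -0.58 to -0.10, adjusted p = 0.0840) and -0.39 ± 0.11 for PSME2 (95% interval -0.64 to -0.14, adjusted p = 0.0585), so neither passed the test. Without TFAM-OE replicate 1 both passed it, at -0.43 (adjusted p = 0.0248) and -0.50 (adjusted p = 0.00970). Scaling by library size alone also brought both below the threshold (adjusted p = 0.0395 and 0.0260), and DESeq2 did so for PSME2 (adjusted p = 0.0304).

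The constitutive proteases gave another picture. PSMB5, which carries the chymotrypsin-like site, had 287.7, 319.2 and 324.1 CPM in the control libraries and 355.3, 314.6 and 252.6 CPM in those labelled TFAM-OE. The labelled TFAM-OE libraries lay on both sides of the control range, with replicate 1 above it and replicate 3 below, and the log2 fold change was -0.01 ± 0.13 (95% interval -0.30 to 0.27, adjusted p = 0.963). PSMB6, with the caspase-like site, had 251.7, 282.1 and 307.2 against 300.3, 276.5 and 224.7 CPM. Its log2 fold change was -0.07 ± 0.13 (95% interval -0.35 to 0.21, adjusted p = 0.772), again with overlapping groups. The lower bounds of both intervals lay above the upper bounds for PSMB8 and PSMB9, which were -0.67 and -0.74, but smaller differences fall within them.

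PSMB7, with the trypsin-like site, differed from these. It had 341.9, 365.9 and 404.1 CPM in the control libraries and 346.7, 303.1 and 230.5 CPM in those labelled TFAM-OE. TFAM-OE replicate 1 fell within the control range and replicates 2 and 3 below it. The log2 fold change was -0.34 ± 0.14 (95% interval -0.66 to -0.02, adjusted p = 0.177), as negative as that of PSME1 but more variable. It passed the test only when TFAM-OE replicate 1 was left out (-0.47, adjusted p = 0.0332).

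The balance between each inducible protease and the constitutive one it replaces was taken from the deposited FPKM, which is per length, as a ratio within each library. PSMB8 stood at 0.335, 0.378 and 0.338 of PSMB5 in the control libraries and at 0.180, 0.180 and 0.168 in those labelled TFAM-OE. The groups were far apart, with a difference of -0.99 in the mean log2 ratio against SDs of 0.10 and 0.06. PSMB9 stood at 0.190, 0.259 and 0.220 of PSMB6 in the control libraries and at 0.110, 0.108 and 0.1001 in those labelled TFAM-OE. The groups did not overlap here either, and the difference in the mean log2 ratio was -1.06 against SDs of 0.22 and 0.07. Both differences gave p = 0.1 in an exact permutation test over the 6 libraries (two-sided, 0.15 adjusted over the 3 pairs), the smallest p that 3 against 3 libraries allow.

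PSMB10 was a small fraction of PSMB7, at 0.0297, 0.0351 and 0.0267 in the control libraries and 0.0246, 0.0230 and 0.0269 in those labelled TFAM-OE. TFAM-OE replicate 3 exceeded control replicate 3, so the groups overlapped. The difference in the mean log2 ratio was -0.29 against SDs of 0.20 and 0.11 (exact permutation test, two-sided, p = 0.2, adjusted p = 0.2). With a library left out it ranged from -0.38 to -0.18. With the readthrough reads added to PSMB10 it was 0.32, on the scale of CPM. Over the 6 catalytic genes together, the inducible members made up 13.6%, 16.4% and 14.2% of the summed FPKM in the control libraries and 8.76%, 8.67% and 8.41% in those labelled TFAM-OE. The constitutive proteases thus supplied most of the catalytic mRNA in every library.

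**Figure D2:**
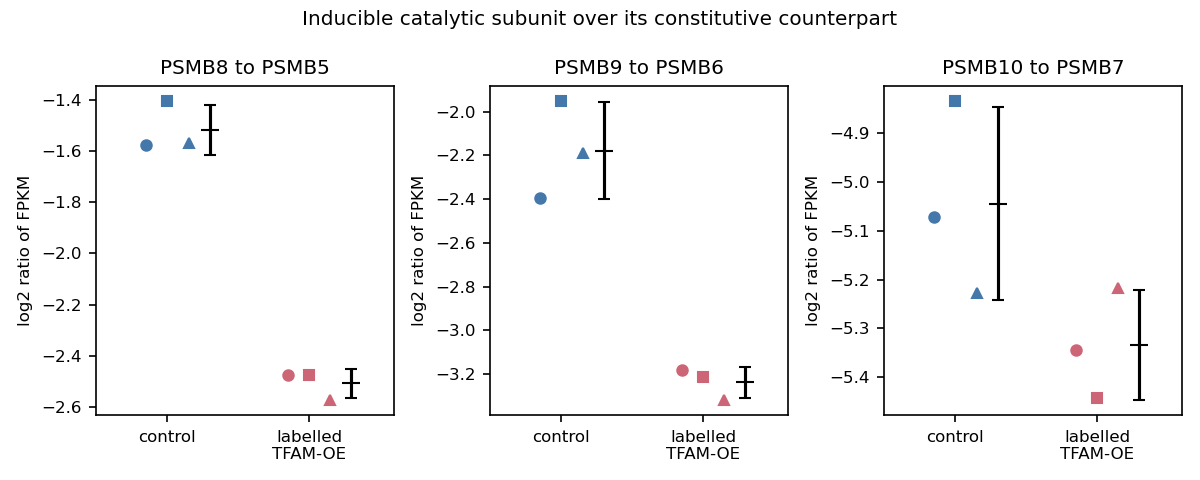
Log2 ratio of the deposited FPKM of PSMB8 to PSMB5, PSMB9 to PSMB6 and PSMB10 to PSMB7 in each library (circle, square and triangle: replicates 1, 2 and 3), with the mean and SD of each group of 3. The mean differences are -0.99, -1.06 and -0.29, and only the third pair has overlapping groups.

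The alpha ring was represented by 9 gene entries, of which 0 passed edgeR's test, 0 had an unadjusted p below 0.05 and 0 passed under DESeq2 or limma-voom. Among all genes tested, edgeR called 4.81% lower and 3.48% higher. At such shares, 0 calls among 9 entries do not set the ring apart from other genes. The log2 fold changes of the 9 entries ran from -0.34 for PSMA6 to 0.07 for PSMA4 (median 0.01). PSMA6 had 6.91, 7.25 and 7.09 CPM in the control libraries and 6.84, 5.34 and 4.57 CPM in those labelled TFAM-OE, without overlap, and its adjusted p was 0.233. The readthrough row RP11-561B11.2 shares 919 of its 3857 exon bases with PSMA6 and held 6098 to 9073 reads a library, an unknown part of them outside PSMA6. Summed with that row, PSMA6 stood between 207.8 and 265.6 CPM, its groups overlapped, and its log2 fold change was -0.04 (adjusted p = 0.850). PSMA1 and PSMA2 also had low values in their own rows, 14.6 to 17.9 and 3.43 to 4.02 CPM, beside the readthrough rows with the same symbols, at 142.7 to 183.3 and 147.4 to 196.3 CPM. Summed, their log2 fold changes were 0.06 for PSMA1 and -0.12 for PSMA2.

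Among the 7 constitutive beta genes, the structural members PSMB1, PSMB2, PSMB3 and PSMB4 lay between 0.03 and 0.09, and PSMB7 was the only gene of the ring with an unadjusted p below 0.05. The 6 ATPases of the cap, which unfold the substrate, ranged from -0.18 for PSMC6 to 0.15 for PSMC5 (median -0.01). PSMC6 had 98.5, 87.3 and 95.6 CPM in the control libraries and 86.3, 84.7 and 77.5 CPM in those labelled TFAM-OE, a separation of less than 1 CPM (adjusted p = 0.272). The 11 other cap subunits, among them the deubiquitinase PSMD14, the ubiquitin receptor PSMD4 and the scaffolds PSMD1 and PSMD2, ranged from -0.13 for PSMD12 to 0.15 for PSMD6 (median 0.02). For the ATPases and these 11 alike, 0 passed edgeR's test, 0 had an unadjusted p below 0.05 and 0 passed under DESeq2 or limma-voom. EdgeR called 4.81% of all genes tested lower and 3.48% higher, so 0 calls do not set groups this small apart. PSMD14 was at 0.00 and PSMD4 at 0.02.

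Neither of the other activators passed the test. PSME3, a nuclear activator that interferon does not induce, had 280.3, 307.7 and 312.7 CPM in the control libraries and 363.7, 335.1 and 339.1 CPM in those labelled TFAM-OE. All 3 labelled TFAM-OE libraries were above all control libraries, the sole member for which this held, but the log2 fold change of 0.20 ± 0.09 did not pass the test (95% interval -0.00 to 0.41, adjusted p = 0.1997). PSME4, a large activator linked to histone degradation, had 56.0, 49.8 and 44.5 CPM against 28.0, 42.2 and 58.8 CPM. The labelled TFAM-OE libraries differed more among themselves than the groups did, and the log2 fold change of -0.22 ± 0.22 (adjusted p = 0.573) became 0.01 without TFAM-OE replicate 1 and -0.51 without TFAM-OE replicate 3 (adjusted p = 0.0374). The inhibitor PSMF1 was at 0.05 (adjusted p = 0.792).

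The 7 assembly chaperones, PSMG1 to PSMG4 for the core and PSMD5, PSMD9 and PSMD10 for the cap, ranged from -0.09 for PSMG4 to 0.13 for PSMG3 (median 0.07). Of the 7, 0 passed edgeR's test, 0 had an unadjusted p below 0.05 and 0 passed under DESeq2 or limma-voom. With 4.81% of all genes tested called lower by edgeR and 3.48% higher, 0 calls do not set so small a group apart. Of the tissue-specific members, PSMB11, known from the thymus, had 1, 0 and 0 reads in the control against 0, 0 and 3 in the labelled TFAM-OE group, which is not distinguishable from absence. PSMA8, known from the testis, had no row in the table. Of the 43 constitutive members tested, 39 had a log2 fold change within 0.2 of 0, 15 were below 0 and 28 above.

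**Figure D3:**
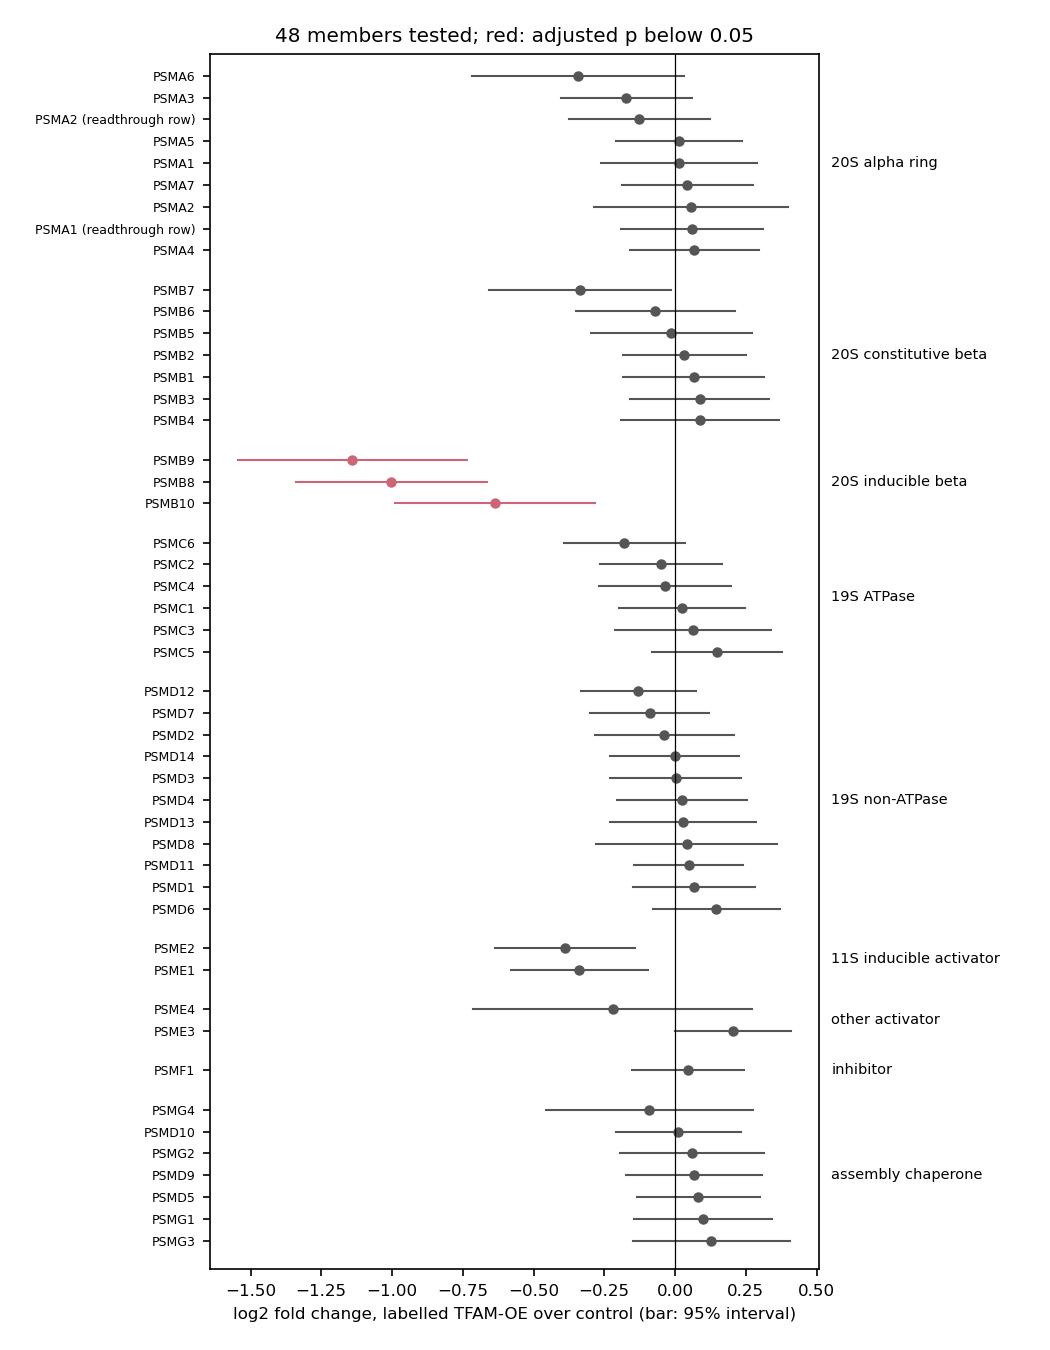
Log2 fold change of the 48 tested members, labelled TFAM-OE over control, with its 95% interval, ordered within subcomplexes; red marks an adjusted p below 0.05. PSMB9, PSMB8 and PSMB10 stand to the left at -1.14, -1.003 and -0.64, and the constitutive members lie between -0.34 and 0.20.

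Counted by overlap instead of by test, 8 of 48 members were lower in every labelled TFAM-OE library than in any control library, 16.7% against 15.8% of all genes tested. They were the 5 inducible members with PSMA6, PSMC6 and PSMD12. In the other direction stood PSME3 alone, 2.08% against 15.8%. With the readthrough reads summed, chosen after seeing the data, PSMB10 and PSMA6 overlapped, and 6 of 46 members were lower, 13% against 15.8%: PSMB8, PSMB9, PSME1, PSME2, PSMC6 and PSMD12.

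The libraries labelled TFAM-OE were less alike than the control libraries in these genes, and not in these alone. Over the genes with enough reads, a chi-square per degree of freedom measured the difference between libraries of a group. For replicates 1 and 2, 1 and 3, and 2 and 3 it was 14.04, 61.96 and 26.73 in the labelled TFAM-OE group. In the control it was 12.02, 23.48 and 8.06. TFAM-OE replicate 1 had the highest CPM of its group in 38 of the 43 constitutive members and TFAM-OE replicate 3 the lowest in 38. Control replicate 3 had the highest CPM of its group in 30 of the 43 and the lowest in 1. The median log2 deviation of the constitutive members from their control mean was 0.14, 0.03 and -0.12 in TFAM-OE replicates 1, 2 and 3, against -0.04, -0.04 and 0.07 in control replicates 1, 2 and 3. Within the labelled TFAM-OE group, PSMD1, PSMD11, PSMD12 and PSME4 were instead highest in replicate 3. The inducible medians ranked the labelled TFAM-OE libraries in the same order, at -0.39, -0.68 and -0.85, but not the control libraries (-0.14, 0.16 and 0.01). The 3 values of the labelled TFAM-OE group are those of PSMB10. With the readthrough reads summed, chosen after seeing the data, the medians were -0.19, -0.42 and -0.58 against -0.17, 0.15 and 0.02, so replicate 1 was then close to control replicate 1. Reads on all members together made up 0.852%, 0.855% and 0.887% of the control libraries and 0.873%, 0.838% and 0.789% of those labelled TFAM-OE. Without TFAM-OE replicate 3, 4 members were lower past the threshold (PSMB8, PSMB9, PSMB10 and PSME4), and without replicate 1, 6 were (PSMB8, PSMB9, PSMB10, PSME1, PSME2 and PSMB7). The calls over all genes, in either direction, also rose, to 3214 without replicate 3 and 1754 without replicate 1, against 1372 with every library.

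**Figure D4:**
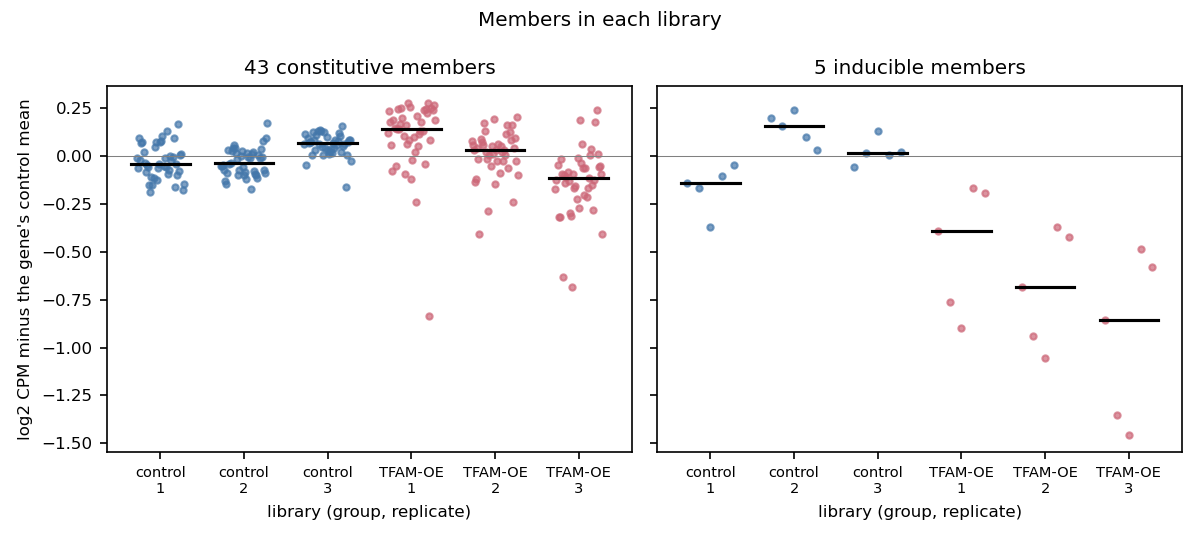
Each point is a member in one library, as log2 CPM minus its mean over the control libraries, for the 43 constitutive and the 5 inducible members tested; bars are medians over the members. The inducible medians in TFAM-OE replicates 1, 2 and 3 are -0.39, -0.68 and -0.85, which are the values of PSMB10 (-0.19, -0.42 and -0.58 with the readthrough reads summed, not drawn), and the constitutive medians 0.14, 0.03 and -0.12.

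Compared per length in the control libraries, PSMB7 had the highest FPKM of all members, 322.5 ± 19.2 (SD, n = 3), followed by PSMB6 at 274.0 ± 20.03 and PSMB3 at 273.7 ± 17.9, which did not differ beyond their spread. PSMB8 ranked 21 and PSMB9 23 of 49, at 63.4 ± 6.08 and 61.3 ± 11.7 FPKM, also within each other's spread. PSMB10 ranked 43, at 9.80 ± 1.13 FPKM, from its own row alone. With the readthrough reads summed, its control CPM went from 12.6, 15.95 and 13.4 to 31.4, 41.3 and 39.6. Its rank with those reads was not computed. PSME1 and PSME2 were far higher, at ranks 8 and 10 with 165.8 ± 9.43 and 146.7 ± 1.79 FPKM. The ATPases lay between 36.6 (PSMC6) and 210.2 FPKM (PSMC4), the other cap subunits between 19.3 (PSMD12) and 151.3 FPKM (PSMD8), and the chaperones between 2.37 (PSMG4) and 40.7 FPKM (PSMD10). The sources used here do not give the gene lengths behind the FPKM, and the counts divided by depth and FPKM implied 0.912 kb for PSMB3 and 8.38 kb for PSME4.

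Genes that act with the proteasome were taken from lists chosen with earlier results of these data known. Among all genes tested, edgeR's test called 4.81% lower and 3.48% higher. Of 10 further subunits and assembly factors, among them the maturation factor POMP (-0.04), the cap subunit SEM1 (0.15), the ubiquitin receptor ADRM1 (-0.05) and the deubiquitinase USP14 (0.06), 0 passed edgeR's test in either direction or under DESeq2 or limma-voom, and their median was -0.04. AKIRIN2, which carries proteasomes into the nucleus, had the most negative value, -0.25 ± 0.10 (adjusted p = 0.136), and was the 1 gene with an unadjusted p below 0.05. A list of 6 ubiquitin genes and enzymes gave 0 calls with edgeR, DESeq2 or limma-voom. Among them, the ubiquitin gene UBB was at 0.04, the segregase VCP at 0.14 and the activating enzyme UBA1 at 0.23, the 1 gene of the list with an unadjusted p below 0.05. NFE2L1, the factor that restores proteasome genes when the proteasome is impaired, was at -0.08 (adjusted p = 0.716), and its activating protease DDI2 at -0.10 (adjusted p = 0.846). In this list 3 of 7 genes were lower past the threshold, against 4.81% of all genes tested. They were the related factor NFE2L2 at -0.56 ± 0.12 (adjusted p = 0.0208) and the partner proteins MAFF at -0.74 ± 0.18 (adjusted p = 0.0385) and MAFK at -0.32 ± 0.09 (adjusted p = 0.0494). All 3 lost the call when control replicate 1 or 2 or TFAM-OE replicate 2 was left out, with adjusted p from 0.0862 to 0.236. MAFK lost it also without control replicate 3 (0.104) or TFAM-OE replicate 1 (0.0613) and under RLE (0.0524) or upper-quartile scaling (0.0564) or with no filter (0.0753), and MAFF under library-size scaling (0.0519) or limma-trend with 1 added to FPKM (0.0530).

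Of the interferon route to the immunoproteasome, 10 of 12 genes could be tested, with a list median of -0.64. This list too was chosen with earlier results of these data known. Past the threshold 5 of its genes were lower, against 4.81% of all genes tested. Among these, STAT2, which carries the signal of type I interferons, was at -1.02 ± 0.16 (adjusted p = 0.00552), NLRC5, a regulator of class I and immunoproteasome genes, at -1.24 ± 0.18 (adjusted p = 0.00351), and IRF1, a factor that binds such promoters, at -0.61 ± 0.13 (adjusted p = 0.0240). IRF1 lost the call without any 1 of control replicates 1, 2 and 3 or TFAM-OE replicate 2 (adjusted p from 0.0539 to 0.117). IFNB1, the only interferon gene of the list that had a row, fell from 174, 121 and 132 reads in the control libraries to 12, 5 and 5 (log2 fold change -4.28 ± 0.32, adjusted p = 7.22e-05), and limma-trend with 0.1 or 1 added to FPKM gave -3.88 and -2.15. The receptor genes IFNGR1 (-0.36, adjusted p = 0.0591) and IFNGR2 (-0.18), the kinases JAK1 (-0.00) and JAK2 (-0.68, adjusted p = 0.0902) and the class II regulator CIITA (-0.00) did not pass edgeR's test. DESeq2 called 7 genes of the list lower, IFNGR1 (adjusted p = 0.0366) and JAK2 (adjusted p = 0.0447) among them, and limma-voom 5. Without TFAM-OE replicate 3 both passed edgeR's test (adjusted p = 0.0306 and 0.00779), and JAK2 did with no filter (adjusted p = 0.00829). IFNG had no row, and IRF9 had at most 5 reads a library. The readthrough gene ENSG00000259529, which shares exons with IRF9 and RNF31, had 1372 to 3772 reads a library and -0.72 ± 0.16 (adjusted p = 0.0258).

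A list of 15 genes covered peptide loading and class I histocompatibility, which receive what the proteasome cuts. Of these genes, 9 were lower past the threshold, against 4.81% of all genes tested, with a list median of -0.98. The list was chosen with earlier results of these data known. In the other direction 0 of its genes passed edgeR's test, 1 (CALR) had an unadjusted p below 0.05 and 0 passed under DESeq2 or limma-voom. The lower genes included the peptide transporter genes TAP1 and TAP2 (-0.86 ± 0.11), the trimming peptidase ERAP1 (-0.82 ± 0.15), B2M (-1.25 ± 0.14) and the class I genes HLA-B (-2.34 ± 0.22), HLA-C (-1.62 ± 0.16), HLA-E (-0.98 ± 0.12) and HLA-F (-2.05 ± 0.15). The HLA genes are near-identical copies in part, so reads could be divided among them. Without control replicate 1 or 2 or TFAM-OE replicate 2, ERAP1 lost its call (adjusted p from 0.0599 to 0.0703). The general chaperones CALR (0.24), CANX (-0.39) and PDIA3 (-0.12) and the loading factors TAPBP (-0.08) and TAPBPL (-0.28) did not pass edgeR's test, nor did ERAP2 (-1.02 ± 0.28, adjusted p = 0.0515). DESeq2 called 10 genes lower, with ERAP2 (adjusted p = 0.00894), and limma-voom 9. ERAP2 also passed without control replicate 3 (0.0205) or TFAM-OE replicate 3 (0.0216), CANX without TFAM-OE replicate 3 (0.00820), and both with no filter. The values of PSMB8 and PSMB9 thus lay near that of TAP1, and those of PSME1 and PSME2 were closer to 0 than any of the 9.

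**Figure D5:**
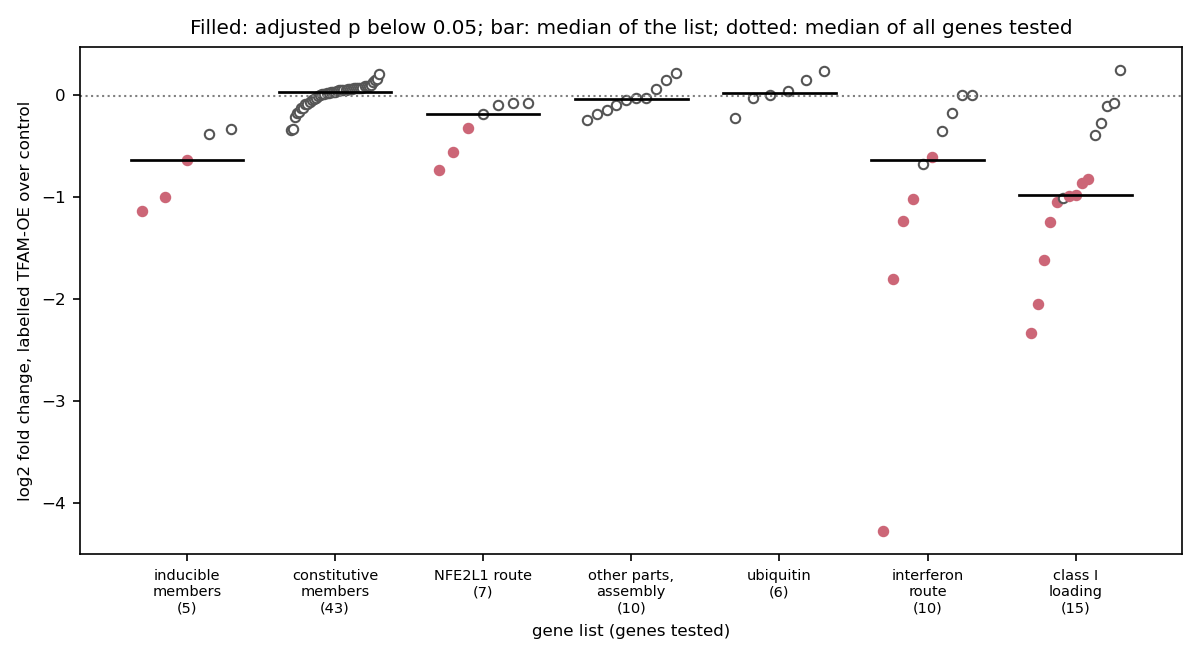
Log2 fold change, labelled TFAM-OE over control, of the inducible and constitutive members and of the genes in 5 related lists; filled points have an adjusted p below 0.05, bars are list medians and the dotted line is the median of all genes tested. The medians are -0.64 for the inducible members (-0.39 with the readthrough reads summed, not drawn), 0.03 for the constitutive members, -0.64 for the interferon route and -0.98 for class I loading.

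Immune cells carry much immunoproteasome, so their markers were examined. Of 6 immune genes, PTPRC had at most 1 read in any library, LYZ at most 5 and CD79A 8 to 26, and CD3E had no row. The most abundant was CD68, a lysosomal protein also found outside immune cells, with 101, 98 and 113 reads in the control against 48, 63 and 28 in the labelled TFAM-OE group (log2 fold change -1.21 ± 0.24, adjusted p = 0.0152), a call lost without control replicate 1 (0.0621) or 2 (0.0828). The summed level of the list was 3.81, 4.26 and 3.55 CPM against 2.23, 2.39 and 1.33 CPM, and its part in the values of PSMB8 and PSMB9 was not tested. The endothelial genes PECAM1, CDH5 and VWF had at most 4 reads in a library. Of the fibroblast genes, DCN and PDGFRA had at most 10 reads, COL1A1 had 83 to 173 and COL1A2 had no row.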

How the data were processed

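The authors deposited, for each library, a raw count of reads per gene and an FPKM value with 2 decimals. After trimming, they mapped reads with TopHat2 on GRCh38 and kept those with a unique position. The counting program, annotation and strand setting were not stated in the sources read. A gene was tested when edgeR's filterByExpr kept it, which left 16555 of 29845 genes. Counts were scaled by TMM and compared in R (4.3.3) with edgeR's quasi-likelihood test (4.0.16), two-sided, with Benjamini-Hochberg adjustment over all genes tested, at an adjusted p below 0.05. The common biological coefficient of variation was 0.137. Ratios of deposited FPKM were compared with an exact permutation test in Python (3.11.15) with numpy (2.4.6), pandas (2.3.3) and scipy (1.17.1). Figures were drawn with matplotlib (3.10.9). Coordinates came from GENCODE version 44, which held 97.2% of the gene identifiers and all 49 members, and promoter windows from RefSeq. Pseudogenes named after PSM genes held 324 reads in all libraries, against 1664626 on the members.

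Alternatives were DESeq2 (1.42.0), limma-voom and limma-trend (limma 3.58.1, with 0.1 or 1 added to FPKM), RLE, upper-quartile and library-size scaling, no filter, the replicate number as a block and each library left out in turn. Summing the reads of overlapping readthrough genes was chosen after seeing the data. The test was run on simulated counts, where the share of false calls exceeded the nominal share in some runs. The catalytic and inducible members were named with the value in every library, and the others by range within their subcomplex, with the highest and lowest named. PSMA6, PSMC6, PSME3 and PSME4 were given by library after their values were seen. Some genes of the lists are not reported here. The members and lists were chosen with earlier results of these data known.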

Additional observations from a re-analysis of the deposited data

How the results depend on the processing

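PSMB8 and PSMB9 were lower past the threshold under all 16 alternatives, with log2 fold changes of -1.13 to -0.85 and -1.30 to -0.99 and adjusted p of at most 0.0403 and 0.0467. The members lower past the threshold numbered 5 with library-size scaling and with either limma-trend fit, and 2 to 6 with a library left out. Over all genes, in either direction, 1192 passed with library-size scaling and 1405 and 1421 with limma-trend, against 1372 in the main fit. With a library left out, the genes passing ranged from 306 (without control replicate 2) to 3214 (without TFAM-OE replicate 3). PSMB10 missed the threshold with readthrough reads summed (-0.031), where its ratio to PSMB7 turned to 0.32. The summed value differs from that of the PSMB10 row by the reads added, an unknown part of which lies outside PSMB10. With a library left out PSMB10 ranged from -0.77 to -0.53. PSME1 passed with library-size scaling (-0.36) and limma-trend with 0.1 (-0.37) or 1 (-0.36) added, and ranged from -0.43 to -0.26 with a library left out. PSME2 passed with DESeq2 (-0.38), library-size scaling (-0.42), no filter (-0.38) and limma-trend (-0.42 with either value added), and ranged from -0.50 to -0.30. With a library left out, PSMB5 ranged from -0.13 to 0.12, PSMB6 from -0.16 to 0.048, PSMB7 from -0.47 to -0.18, PSME4 from -0.51 to 0.013 and PSMG4 from -0.25 to 0.053. The cause of these shifts was not tested. The median of the constitutive members lay between -0.04 and 0.10 throughout.

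With the replicate number as a block, PSMB8 was at -1.02 (adjusted p = 0.0327), PSMB9 at -1.14 (adjusted p = 0.0452) and PSMB10 at -0.64 (adjusted p = 0.125), and 359 genes passed in place of 1372. IRF1, ERAP1, NFE2L2, MAFF, MAFK and STAT2 (adjusted p = 0.0503) also missed the threshold. Their log2 fold changes, in that order, were -0.62, -0.83, -0.55, -0.72, -0.32 and -1.01, close to those without the block. Same-numbered libraries had correlations of -0.303, 0.0362 and -0.358 in their deviations from the group means. Control replicate 3 with TFAM-OE replicate 1 had 0.338, and control replicate 1 with TFAM-OE replicate 3 had 0.337. Deviations from a mean of 3 libraries depend on each other, so these values cannot decide whether the numbers pair the libraries. PSMB11, with at most 3 reads a library, could not be tested.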
